A study of Homo sapiens with 24 samples.

Results

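The replication-dependent histone genes were represented by 79 transcript clusters out of the 33297 on the array. Such a cluster groups the probes that the array design assigns to 1 locus. A cluster was taken as a member when the platform annotation gave it at least 1 symbol of the HIST1, HIST2, HIST3 or HIST4 gene groups or the current name of such a gene. By class, 6 clusters belonged to H1, 16 to H2A, 23 to H2B, 14 to H3 and 17 to H4, and 3 clusters carried symbols of more than 1 class. Because the coding sequences of these genes are alike and 20 clusters listed several symbols, the cluster and not the gene was the unit. Some of the symbols name pseudogenes, such as H2BC19P, and cluster 7919604 also lists FCGR1BP, which is not a histone symbol. A cluster with 1 symbol is called by that symbol, which does not establish that its probes saw no other copy. On every array 4 pairs of clusters held identical values, so the 79 clusters stood for 75 distinct measurements.

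All samples were L1236, an established cell line of Hodgkin lymphoma with a B cell origin, and expression was read as log2 values on Affymetrix Human Gene 1.0 ST arrays. Experiment 1 compared 6 arrays of p50/RelA knockdown (KD) with 6 arrays of non-targeting control siRNA, and experiment 2 compared 6 arrays of p52/RelB KD with 6 control arrays of its own. Every arm consisted of 2 siRNA sequences in each of 3 biological replicates. In p50/RelA KD, siRNA against NFKB1 was present for 3 days at 1 µM and siRNA against RELA for 2 days at 500 nM. In p52/RelB KD, siRNA against RELB was present for 3 days at 1 µM and siRNA against NFKB2 for 2 days at 500 nM. Cells of all groups were harvested 1 day after return to standard serum. The sources used here do not give whether the samples of a replicate were cultured apart, and p-values therefore cover the spread between these arrays.

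Replication-dependent histone genes encode the H2A, H2B, H3 and H4 proteins of the nucleosome and the linker histone H1, and are transcribed mainly in S phase, when newly made DNA is packed into chromatin. Most of them have no introns and lie in clusters, the largest of which is HIST1. Their mRNAs end in a conserved stem-loop that is bound by SLBP instead of a poly(A) tail, and they are degraded quickly once DNA synthesis stops. In bulk RNA, a change in their level cannot be told apart from a change in the share of cells in S phase, and less RNA per cell cannot be told apart from fewer cells.

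The labels held on these arrays, with 1 target whose RNA fell little. The study followed depletion of the subunit proteins by western blot, and protein was not measured here. NFKB1 went from a mean of 11.2 in control to 9.28 in p50/RelA KD and RELA from 9.85 to 8.46, while NFKB2 went from 10.3 to 8.95 in p52/RelB KD and RELB from 9.07 to 8.78. NFKB1 was also called higher in p52/RelB KD and NFKB2 lower in p50/RelA KD. Levels were compared only within an experiment, because the array medians were 6.94 to 6.99 in experiment 1 but 7.39 to 7.51 in experiment 2. One p52/RelB KD array, with sequence 2 in replicate 3, stood apart from the rest, with the highest median, 7.51, and the lowest interquartile range, 3.16, of its experiment. Markers of Hodgkin cells were measured at control means of 6.67 to 12.4 in experiment 1, and of the B cell genes MS4A1, which encodes CD20, was at 4.38, CD79B at 6.95, CD79A at 7.03 and BLK at 7.17. Markers of T and NK cells lay at 3.21 to 7.77, those of myeloid cells at 3.98 to 7.78, and those of stromal, endothelial and epithelial cells at 3.9 to 12.3, the highest being a cluster of PECAM1. In experiment 2, 6 T and NK, 5 myeloid and 9 stromal, endothelial or epithelial clusters passed the low value limit, and 1 of these, of PECAM1, was called (higher by 0.19). Its part in the histone values was not tested.

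A cluster was tested when it carried a symbol and was not below 6 on 50% or more of the 12 arrays of its experiment. This left 72 members in experiment 1 and 75 in experiment 2. In experiment 1 the 7 untested members were H2BC1, H2BC6, H2AC1, H1-6, H4C7 and clusters 7919604 and 8117415. In experiment 2 the 4 untested members were H2BC1, H1-6, H4C7 and cluster 8117415. Just inside the limit in experiment 2 were H2AC1 and H2BC6, at control means of 6.11 and 6.28, and just outside it were H4C7 and H1-6, at 5.97 and 5.88. In experiment 1, H2BC10 and H2BC19P lay just inside at 6.51 and 6.78, and cluster 7919604 and H1-6 just outside at 5.67 and 5.53. H1-6, H2AC1 and H2BC1 are genes of the testis, as is H3-4, which was tested in both experiments and not called in either (0.01 and 0.08 on the log2 scale). All differences below are KD minus control on the log2 scale, and a cluster was called at a limma adjusted p below 0.05 if it also differed by 10% or more, which is 0.14.

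Histone clusters rose in p52/RelB KD. Of the 75 tested, 31 were called higher and 0 lower, where over all 17562 clusters tested 4.04% were called higher and 6.0% lower. At an unadjusted p below 0.05, 36 members were higher and 1 was lower, beside 1936 higher and 2110 lower among all 17562 clusters. The called differences ranged from 0.16 to 0.66, or from 1.11-fold to 1.58-fold, with a median of 0.30. The median difference of all tested members was 0.12, beside 0.02 over all clusters tested, and 66 of the 75 differences were above 0 (88% of the members, 57.4% of all clusters). Because of the identical clusters, the 31 calls were 29 distinct measurements.

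The counts and medians are given by class. H3 had 10 of 13 clusters called and a median difference of 0.29, H2A had 8 of 16 called and a median of 0.18, and H4 had 6 of 16 called and a median of 0.12. With identical clusters counted once, the calls were 9 of 12 for H3, 8 of 15 for H2A and 5 of 14 for H4. H2B, the class with the most clusters, had 4 of 22 called and a median of 0.05, and H1 had 1 of 5 called and a median of 0.07. Some of these medians moved by more than 1.5 times. The H1 median was 0.01 without replicate 2, 0.04 without the array of sequence 1 in replicate 3 of the KD, 0.12 without the array of sequence 2 there and 0.02 with sequence 2 alone against its own controls. The H2B median was 0.02 without replicate 2, 0.03 without that array of sequence 1 and 0.08 over clusters with 1 symbol, and the H4 median was 0.07 over clusters with 1 symbol and 0.08 without the low value limit. The 3 clusters with symbols of 2 classes had 2 calls. Differences between the classes were not tested, since the clusters of a class share sequence.

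**Figure D1:**
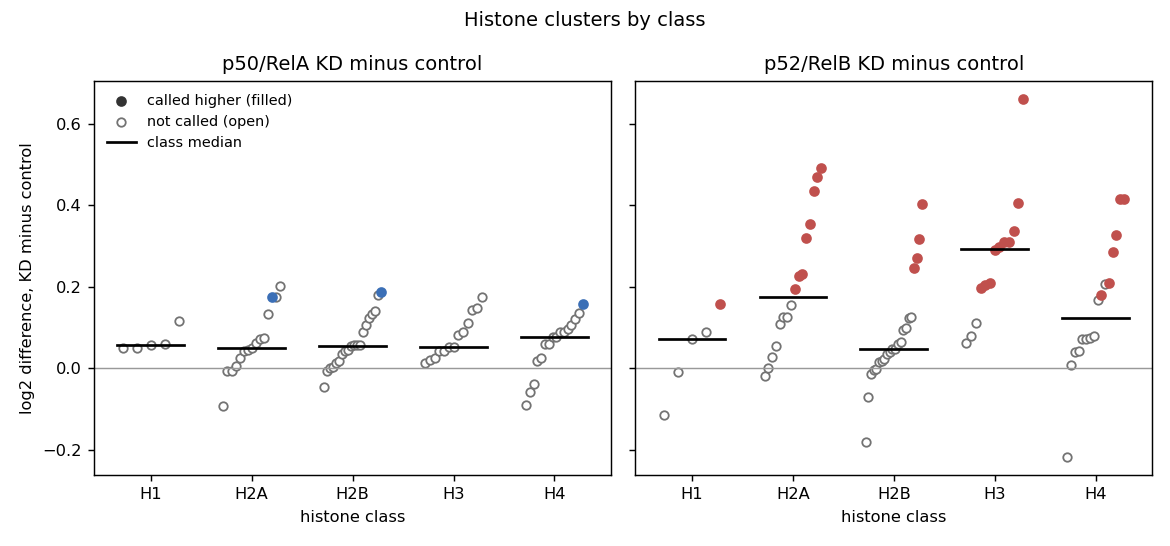
Log2 difference (KD minus control) of every tested histone cluster with symbols of 1 class, by class on the x axis; each point is a cluster, filled points were called higher, open points were not called, and black lines are class medians. In p52/RelB KD 10 of 13 H3 clusters were called (9 of 12 with identical clusters counted once) and all 13 lay above 0, while in p50/RelA KD 3 clusters were called.

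H3C3 (HIST1H3C) showed the largest rise among the members. H3 genes encode the core histone whose tail carries many of the marks on chromatin. In experiment 2 the lowest, median and highest control arrays had H3C3 at 8.41, 8.61 and 8.78, and those of p52/RelB KD at 9.05, 9.29 and 9.48. All 6 KD arrays lay above all 6 control arrays, which held for 9 of the 75 tested members and for 2.02% of all clusters tested. The difference was 0.66 ± 0.04 (SE, n = 6 per arm), or 1.58-fold, with a limma adjusted p of 4.18e-06. It was 0.66, 0.63 and 0.70 in replicates 1, 2 and 3, and 0.70 and 0.63 for siRNA sequences 1 and 2 against the pooled controls. In experiment 1 H3C3 ranged from 8.03 to 8.18 in control and from 8.01 to 8.46 in p50/RelA KD, the arms overlapped, and the difference of 0.08 ± 0.05 was not called (adjusted p = 0.694).

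Other H3 clusters rose with smaller differences. H3C1 (HIST1H3A) had control values of 10.26, 10.47 and 10.51 (lowest, median, highest) and values of 10.68, 10.87 and 10.95 in p52/RelB KD. The arms did not overlap, and the difference of 0.41 ± 0.03 (adjusted p = 8.45e-06) varied from 0.40 to 0.42 among the replicates. H3C10 went from 10.58, 10.92 and 10.99 to 11.08, 11.19 and 11.32, also without overlap, with a difference of 0.34 ± 0.07 (adjusted p = 0.00643). Clusters 7905085 and 7919614, which list the same 3 H3 symbols and hold identical values, rose by 0.31 ± 0.05, and clusters 7919589 and 7919612, which list these symbols too, by 0.21 and 0.20. H3C7, H3C8 and H3C12 were called as well, at 0.30, 0.29 and 0.20. H3C2, H3C11 and H3-4 were the 3 tested H3 clusters that were not called, at 0.11, 0.06 and 0.08. Averaged over the 13 H3 clusters, the control arrays lay at 10.62, 10.83 and 10.92 and the KD arrays at 10.90, 11.08 and 11.20 (lowest, median, highest), so the class mean overlapped between the arms by a narrow margin.

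The stretch before the start of H3C3 is shown because this gene had the largest difference. In the promoter windows of RefSeq (GRCh38.p14), which run from 250 bases before to 50 bases after a gene's start, 3 short motifs were searched on both strands: the TATA box TATAAA, the CCAAT box CCAAT and the octamer ATTTGCAT, known as a binding site of POU2F1 in H2B promoters. Below are the 150 bases before the start of H3C3 (chr6:26045234-26045383, plus strand), with the matches in capitals.
H3C3: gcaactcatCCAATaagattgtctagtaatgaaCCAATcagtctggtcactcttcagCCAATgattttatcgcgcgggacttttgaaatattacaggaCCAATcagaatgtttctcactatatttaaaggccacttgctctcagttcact
This stretch held 4 CCAAT matches and neither of the other motifs. Windows were found for 53 of the 59 symbols that had a cluster of their own, in 55 windows, and all 7 windows of H3 genes held CCAAT.

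H2A and H2B form the dimers that flank the H3 and H4 core of the nucleosome. Among H2A genes H2AC12 (HIST1H2AH) had the largest difference. Its lowest, median and highest values were 9.25, 9.56 and 9.69 in control and 9.82, 9.97 and 10.28 in p52/RelB KD, without overlap. The difference was 0.49 ± 0.06 (adjusted p = 0.000177), and it was lower in replicate 3 (0.36) than in replicates 1 and 2 (0.57 and 0.54). In experiment 1 the same gene ranged from 9.07 to 9.35 in control and from 8.76 to 9.61 in p50/RelA KD, with a difference of 0.01 ± 0.08 (adjusted p = 0.992). The KD arrays of that experiment fell on both sides of the control range, and its replicates differed by 0.28, -0.17 and -0.10.

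H2AC17 went from 8.47, 8.76 and 8.95 to 8.91, 9.12 and 9.61 in p52/RelB KD, a difference of 0.47 ± 0.10 (adjusted p = 0.0089). H2AC14 went from 9.22, 9.75 and 9.83 to 9.82, 9.96 and 10.50, a difference of 0.43 ± 0.11 (adjusted p = 0.0225). In both genes the arms overlapped, and their SEs were larger than those of H2AC12 and the other H2A genes called. H2AC4 rose by 0.36 ± 0.04 (adjusted p = 8.5e-05) and H2AC11 by 0.32 ± 0.05 (adjusted p = 0.00094), the latter without overlap, from 9.52 to 9.75 in control and from 9.80 to 10.16 in KD. H2AC16, H2AC20 and H2AC13 were called at 0.23, 0.23 and 0.20. The 2 identical clusters that list 4 H2A symbols passed the adjusted p (0.0371) but stayed under the size limit at 0.13.

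Of the H2B genes, H2BC17 (HIST1H2BO) rose most, from 8.50, 8.82 and 8.94 (lowest, median, highest) to 8.91, 9.21 and 9.37. The arms overlapped slightly because replicate 2 lay low in both, and the difference within replicates was 0.48, 0.42 and 0.31. Over all arrays it was 0.40 ± 0.04 (adjusted p = 0.000116). Cluster 8068898, which has H2BC17 among its 4 symbols and a control mean of 12.87, differed by 0.05 and was not called (limma adjusted p = 0.478). Which copies each of these clusters measured was not tested. H2BC21 (HIST2H2BE), which is also made as a polyadenylated mRNA, rose by 0.32 ± 0.06 (adjusted p = 0.0033), and H2BC11 and H2BC13 by 0.27 and 0.25. The other 18 tested H2B clusters were not called, and their differences ranged from -0.18 for the pseudogene H2BC19P to 0.13 for H2BC10.

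Many H2A and H2B genes lie head to head and are transcribed away from a shared promoter region, so pairs were formed by position, with every pair whose RefSeq windows overlapped on opposite strands. There were 9 such pairs, with 214 to 247 bases between the starts, and both genes were tested in 8. In p52/RelB KD both genes were called higher in 4 pairs, neither in 3, and the H2A gene alone in 1, H2AC14/H2BC14. The 4 pairs were H2AC17/H2BC17 (0.47 and 0.40), H2AC11/H2BC11 (0.32 and 0.27), H2AC20/H2BC21 (0.23 and 0.32) and H2AC13/H2BC13 (0.20 and 0.25). In the remaining 3 pairs H2AC25/H2BC26 differed by 0.16 and 0.04, H2AC8/H2BC8 by 0.05 and 0.12, and H2AC6/H2BC4 by -0.02 and 0.10. H2BC14, the partner of H2AC14, differed by 0.06 ± 0.03 (adjusted p = 0.344), with values of 13.26 to 13.55 in control and 13.37 to 13.60 in KD. Among the 11 tested members with a control mean of 12 or higher, H2BC14 included, the median was 0.05 and 1 was called. The difference between the partners was not tested, nor was the part of their unlike signal levels.

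**Figure D2:**
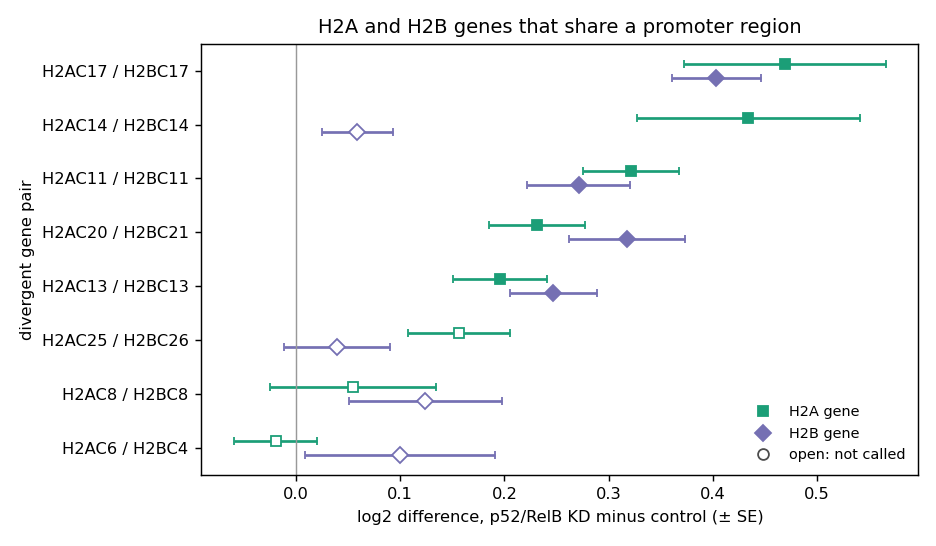
Log2 difference (p52/RelB KD minus control, x axis, with SE bars) of the H2A gene (squares) and the H2B gene (diamonds) of the 8 divergent pairs in which both were tested; filled symbols were called higher. Both members were called in 4 pairs, and in H2AC14/H2BC14 the H2A gene lay at 0.43 and the H2B gene at 0.06.

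The regions between the starts of 3 pairs are printed for comparison, 1 with both genes called, 1 with the H2A gene called and 1 with neither called. They are given on the plus strand of chromosome 6 (GRCh38.p14), with octamer, TATAAA and CCAAT matches of either strand in capitals, and the gene named first is transcribed to the left. They cover chr6:27893186-27893424, chr6:27814778-27815021 and chr6:26123927-26124171.
H2AC17/H2BC17: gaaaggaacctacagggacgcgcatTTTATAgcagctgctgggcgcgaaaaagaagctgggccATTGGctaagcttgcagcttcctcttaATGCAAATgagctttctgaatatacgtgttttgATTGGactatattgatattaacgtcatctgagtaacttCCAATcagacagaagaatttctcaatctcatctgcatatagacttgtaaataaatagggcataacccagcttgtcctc
H2AC14/H2BC14: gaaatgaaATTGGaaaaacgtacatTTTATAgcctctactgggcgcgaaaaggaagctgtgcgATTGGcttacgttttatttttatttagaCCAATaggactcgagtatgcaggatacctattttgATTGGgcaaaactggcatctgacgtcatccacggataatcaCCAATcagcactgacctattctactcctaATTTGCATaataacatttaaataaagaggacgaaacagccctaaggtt
H2BC4/H2AC6: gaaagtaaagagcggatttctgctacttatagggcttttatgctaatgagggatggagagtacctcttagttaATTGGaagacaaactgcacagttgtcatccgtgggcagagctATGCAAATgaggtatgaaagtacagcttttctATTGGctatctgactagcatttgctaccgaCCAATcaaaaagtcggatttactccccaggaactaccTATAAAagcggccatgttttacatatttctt
Each region held 1 octamer and 1 TATAAA match, with 3, 5 and 3 CCAAT matches in the order shown. The printed called pair and the printed uncalled pair had equal numbers of each match, which covers 1 pair of each kind. Of the 9 pairs, 7 held the octamer between the starts. It was absent from H2AC13/H2BC13, with both genes called, and from H2AC25/H2BC26, with neither called. The octamer was found in 10 of 13 H2A windows and 14 of 18 H2B windows, in 0 of the H1, H3 and H4 windows, and in 1.77% of all 35116 windows. TATAAA was found in 67.3% of the members' windows (11.5% of all windows) and CCAAT in 85.5% (34.6% of all windows); CCAAT was in all H1, H2A, H2B and H3 windows but in 3 of 11 H4 windows. Among windows of members called in p52/RelB KD, 9 of 19 held the octamer, against 14 of 33 among those tested and not called. As only H2A and H2B windows held it, these shares depend on the mix of classes. They do not compare called with uncalled genes of the same class. These matches are letters in a window and do not show binding.

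H4 pairs with H3 at the centre of the nucleosome, and its genes encode nearly the same protein. Clusters 7905067 and 7919627, which list 2 H4 symbols and hold identical values, went from 9.51, 9.61 and 9.86 (lowest, median, highest) to 9.87, 10.06 and 10.34, without overlap. The difference was 0.42 ± 0.05 (adjusted p = 0.000188). The 2 symbols listed are H4C14 and H4C15, which also have clusters of their own, identical to each other, and these ranged from 10.32 to 10.80 in control and from 10.46 to 10.73 in KD, with a difference of 0.07 ± 0.06 (adjusted p = 0.488). Different probe sets assigned to the same genes thus gave a called and an uncalled value, and which copy each set measured was not tested. In the same way H2BC21 rose on its own cluster, while clusters 7919625 and 7919606, which list it with other symbols, differed by 0.06 and 0.04.

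H4C1 (HIST1H4A) went from 8.12, 8.35 and 8.45 to 8.34, 8.71 and 8.93 and rose by 0.33 ± 0.06 (adjusted p = 0.00382). Replicate 2 gave the smallest difference, 0.17, where replicates 1 and 3 gave 0.37 and 0.45. H4C4 and H4C8 were called at 0.28 and 0.18, and so was cluster 8117598, which lists 2 H4 symbols, at 0.21, while cluster 8124521 with the same symbols reached 0.21 with an adjusted p of 0.0543. H4C16, the single HIST4 member, had the lowest difference of all members. It lay at 8.55, 8.63 and 8.66 in control and at 8.20, 8.38 and 8.71 in p52/RelB KD, with 5 of 6 KD arrays below every control array, and the difference of -0.22 ± 0.07 did not pass (adjusted p = 0.0733). Without replicate 3 it was called lower (-0.24, adjusted p = 0.00313); H4C16 was chosen for its value after the data were seen.

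H1, the linker histone, binds the DNA that enters and leaves the nucleosome. H1-1 was the only H1 cluster called, with values of 9.79, 9.92 and 10.14 (lowest, median, highest) in control and 9.98, 10.10 and 10.21 in p52/RelB KD, which overlapped, and a difference of 0.16 ± 0.04 (adjusted p = 0.020). H1-2 differed by 0.09, H1-5 by 0.07, H1-4 by -0.01 and H1-3 by -0.11.

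**Figure D3:**
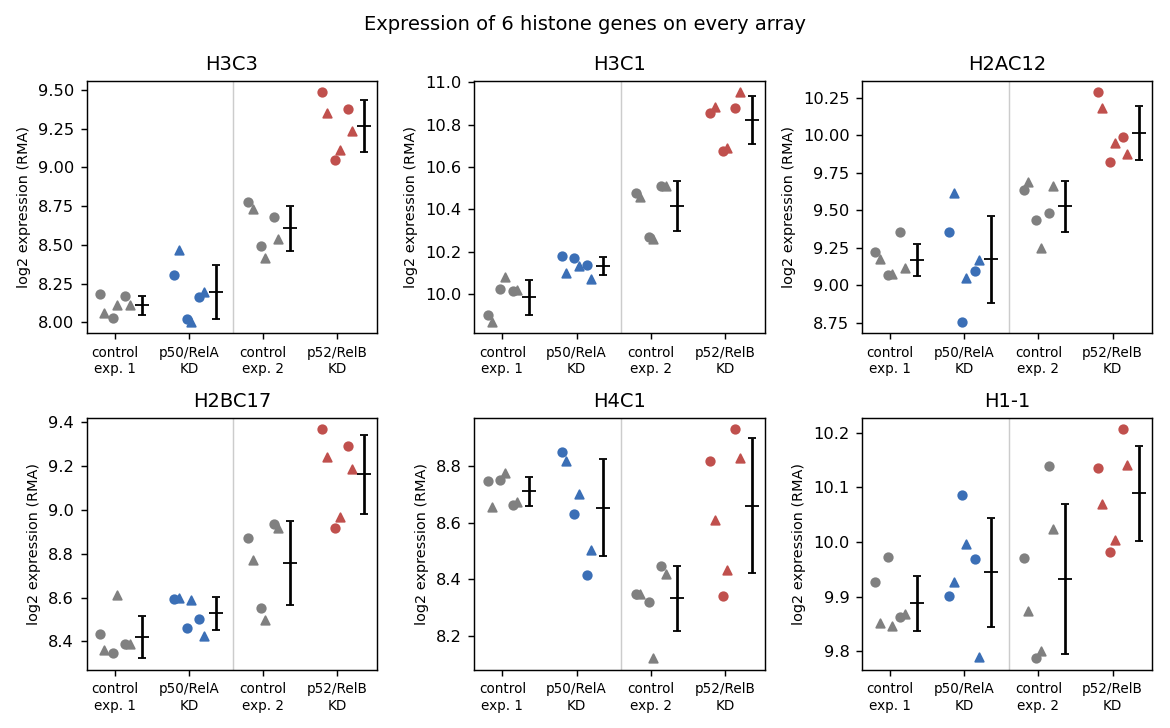
Log2 expression (RMA, y axis) of 6 histone genes on every array, by arm on the x axis; grey points are control and coloured points KD, circles are siRNA sequence 1 and triangles sequence 2, replicates 1 to 3 run from left to right within an arm, and bars give mean and SD of the 6 arrays. H3C3, H3C1 and H2AC12 show no overlap between p52/RelB KD and its control, while H2BC17, H4C1 and H1-1 overlap; levels are comparable only within an experiment.

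The HIST1 group on chromosome 6 and the HIST2 group on chromosome 1 are given side by side for p52/RelB KD, with 23 of 52 and 8 of 19 clusters called and medians of 0.12 and 0.13. The 3 HIST3 clusters were not called (median 0.08). Of the 6 genes that are also made as polyadenylated mRNA, H1-2, H2AC6, H2BC4, H2BC5, H2BC12 and H2BC21, only H2BC21 was called, and their median was 0.04. The 11 tested clusters with a control mean of 12 or higher, a split made after the values were seen, had a median of 0.05 and 1 call, the 32 between 10 and 12 had a median of 0.17 and 16 calls, the 25 between 8 and 10 had 0.25 and 14 calls, and the 7 below 8 had 0.02 and 0 calls. Over all clusters tested, the medians in the same order were -0.03, -0.01, 0.00 and 0.04, with 19 of 497, 198 of 3100, 342 of 6884 and 151 of 7081 called higher. The part of high signal in these differences was not tested.

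The rise was also taken by replicate and by array. The median difference of the 75 members was 0.15 in replicate 1, 0.19 in replicate 2 and 0.07 in replicate 3. For H3 these medians were 0.21, 0.24 and 0.34, whereas H4 had 0.17, 0.17 and -0.01 and H2B 0.06, 0.12 and 0.02. Replicate 3 was scanned in a batch of its own and contained the array that stood apart. On that array 38 of 75 members lay above the mean of the controls of their replicate, with class medians of 0.39 for H3, 0.04 for H2A, -0.03 for H4, -0.06 for H1 and -0.12 for H2B, while on the other 5 KD arrays 61 to 70 of the 75 did. Without it 40 members were called (39 of them higher), and within the other scan batch (replicates 1 and 2) 42 were called, of which 41 were higher. An F test across replicates called 0 members in either experiment (lowest adjusted p 0.859 in p52/RelB KD and 0.836 in p50/RelA KD; 9 and 7 members at an unadjusted p below 0.05), beside 0.00569% and 0% of all clusters.

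**Figure D4:**
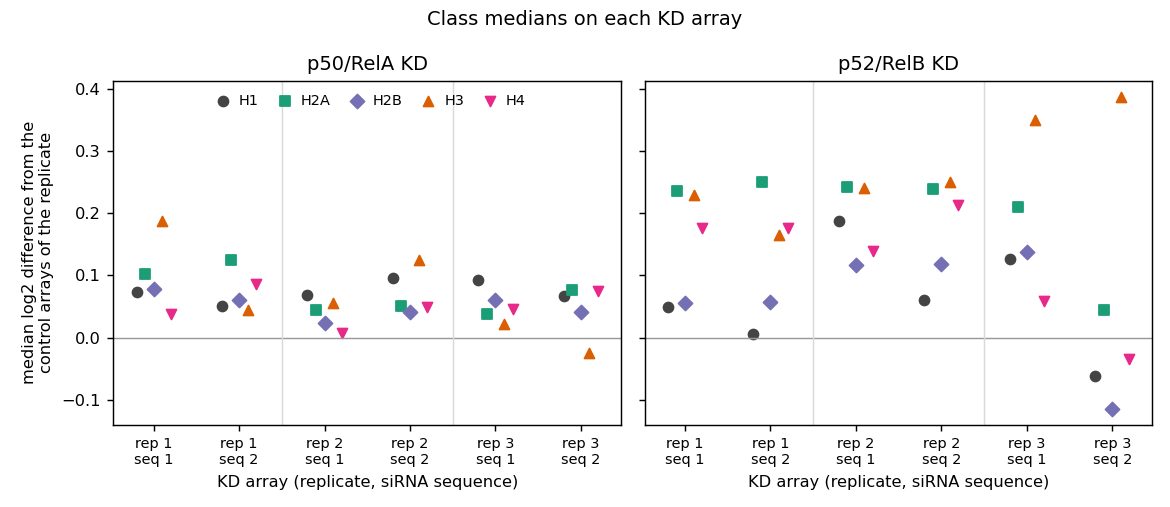
Median log2 difference of each histone class (y axis) on every KD array, taken against the mean of the 2 control arrays of the same replicate, for p50/RelA KD and p52/RelB KD; the x axis gives replicate and siRNA sequence, and colour and shape give the class. In p52/RelB KD the H3 median lay between 0.17 and 0.39 on all 6 arrays, and on sequence 2 of replicate 3 the H1, H2B and H4 medians were below 0.

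Both siRNA sequences gave the same sign for all 31 called members, and 30 of the 31 were above 0 in each replicate. These members were called on the same arrays with both sequences pooled, so their signs are no separate test of the rise. The median difference from the pooled control arrays was 0.18 for sequence 1 and 0.11 for sequence 2. H3 had 0.28 and 0.25, H2A 0.21 and 0.17, H4 0.17 and 0.12, H2B 0.08 and 0.01, and H1 0.13 and 0.01. The contrast of sequence 1 with sequence 2 in KD called 0 members in limma and 0% of all clusters in both experiments (4 members at an unadjusted p below 0.05 in each), and the same contrast in control called 0 members and 0% (2 members in experiment 1 and 1 in experiment 2 at that level). Tested alone with its own controls, 3 arrays per arm, sequence 1 gave 24 calls and sequence 2 gave 0; on sequence 2 alone no cluster of the whole array was called higher.

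Few histone clusters were called in p50/RelA KD. Of 72 tested, 3 were called higher and 0 lower, where 0.263% of all 15989 clusters were called higher and 0.876% lower. At an unadjusted p below 0.05, 21 members were higher and 0 lower, beside 752 higher and 931 lower among all 15989 clusters. The median difference was 0.06, beside 0.00 over all clusters, and 63 of 72 differences were above 0 (87.5% of the members, 50.3% of all clusters). Class medians ran from 0.05 to 0.08, with all 13 H3 and all 5 H1 clusters above 0. The H2A median of 0.05 became -0.01 with sequence 1 alone and 0.13 with sequence 2 alone, each against its own controls. Medians of the members in replicates 1, 2 and 3 were 0.10, 0.05 and 0.05, and 0.06 and 0.08 for sequences 1 and 2. All 6 KD arrays lay above all 6 controls for 2 members, H2AC4 and H2BC7, and for 0.369% of all clusters.

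The 3 called members of p50/RelA KD were of 3 classes. H2BC21 lay at 9.92, 9.99 and 10.10 (lowest, median, highest) in control and at 10.10, 10.19 and 10.29 in KD, with a difference of 0.19 ± 0.04 (adjusted p = 0.0468). H2AC4 lay at 8.79, 8.84 and 8.92 in control and at 8.94, 9.04 and 9.09 in KD, without overlap, with a difference of 0.17 ± 0.04 (adjusted p = 0.0468). H4C2 lay at 10.58, 10.63 and 10.75 and at 10.73, 10.79 and 10.94, with a difference of 0.16 ± 0.03 (adjusted p = 0.0484). All 3 were above their replicate's controls on each of the 6 KD arrays, but these arrays were also the ones on which they were called. Their adjusted p-values were next to the limit, and leaving out any replicate left 0 calls. H2BC21 and H2AC4 were called in both experiments, while H4C2 differed by 0.08 ± 0.04 in p52/RelB KD (adjusted p = 0.313). Clusters 7919625 and 7919606, which list H2BC21 with other symbols, differed by 0.06 and -0.005 in p50/RelA KD and were not called.

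Whether the effects of the KDs differed was tested in 1 fit over all 24 arrays, for the 72 members tested in both experiments. It called 12 clusters higher in p52/RelB KD, 11 of them distinct, and 0 lower, beside 2.02% of 15962 clusters called higher. H3C3 had the largest difference of effects, 0.58 ± 0.07 (adjusted p = 2.78e-05), followed by H2AC12 (0.49), H4C1 (0.39), clusters 7905067 and 7919627 (0.36) and H2BC17 (0.30). H4C1 was the member of this group with opposite signs in the experiments, at -0.06 ± 0.05 in p50/RelA KD and 0.33 in p52/RelB KD. The value in p50/RelA KD was not called (limma adjusted p = 0.826) and was 0.13, -0.10 and -0.21 in replicates 1, 2 and 3. For H2BC21 the effects of 0.19 and 0.32 were not shown to differ (difference 0.13, adjusted p = 0.351). The KDs used other targets and were made and scanned apart, so a difference of effects cannot be told apart from a difference between the experiments.

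Genes that act on histone gene expression, and those of replacement and variant histones, S phase and G2/M, were listed beside the histone clusters. In p50/RelA KD, 0 clusters were called in the lists of histone gene transcription (7 clusters tested), histone mRNA processing and turnover (12), and chaperones and acetylation of new histones (19). The same held for replacement and variant histones (9), S phase (30) and G2/M (20). Over all clusters, 0.263% were called higher and 0.876% lower in this KD, and 4.04% and 6.0% in p52/RelB KD. In p52/RelB KD, 2 of 7 were higher in the transcription list, E2F1 (0.18), which drives entry into S phase, and CDK2 (0.19), the partner of cyclin E. Of the 12 processing and turnover clusters 1 was higher, UPF1 (0.14), a helicase in the decay of histone mRNA, and of the 19 chaperone clusters 1, ASF1B (0.24), which carries H3 and H4. H2AX (0.20), a variant H2A made outside the clusters, was the 1 called of 9 in the list of replacement and variant histones. Of 30 S phase clusters 2 were higher, CDC45 (0.19) and FEN1 (0.15), with a list median of 0.06. Of 20 G2/M clusters 2 were higher, UBE2C (0.16) and BIRC5 (0.16), and 1 was lower, CCNB2 (-0.17), with a list median of 0.04. The S phase differences ran from -0.04 to 0.19. Those of all tested histone clusters ran from -0.22 to 0.66, with a median of 0.12. By class, the histone medians ran from 0.05 for H2B and 0.07 for H1 to 0.29 for H3. The part of the cell cycle in the histone values was not tested.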

How the data were processed

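The authors deposited log2 values that they made with RMA (background correction, quantile normalization and a summary over each cluster's probes), with no version stated in the sources used here. Such values have no detection call, and precision is limited by how many arrays there are. The study set the clustered histone genes aside because of their sequence similarity, and they were kept here. Clusters were named through GEO's platform annotation, with symbols updated from the NCBI table of assembly GRCh38.p14. Each KD was compared with the controls of its own experiment in limma 3.58.1 (R 4.3.3; lmFit and eBayes, Benjamini-Hochberg over all clusters tested), with the replicate as a block, both sequences pooled and 6 arrays per arm; limma takes the place of the methods' two-sample test on values adjusted for unnamed covariates. The thresholds were those of the methods. Control and KD deviations of the same replicate correlated at 0.193 to 0.576 across clusters, above 0.1 in all 6 cases, so the replicate was kept as a block. Each replicate was scanned within 1 batch, so these correlations cannot tell a shared culture from a shared scan. The KD fit with the replicate block, the difference of effects and the F test across replicates were tested on simulated data. The sequence contrasts, the fits with another block or none and the methods' test were not. Lists got counts and medians, no test. Named were the members called in p50/RelA KD, the 12 largest calls in p52/RelB KD, the 2 largest of each class, members called lower, the 6 largest differences of effects, members at the low value limit, and called genes of the lists; other names were chosen by position or after their values were seen. The members, lists and rules were chosen with earlier results of these data known. Alternatives were the block, sequences, replicates and arrays left out, normalization, filters, cluster sets and the methods' test.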

Additional observations from a re-analysis of the deposited data

Results flagged for a closer look

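For 11 distinct members the p52/RelB effect differed from the p50/RelA effect in the test of the difference, each with the larger value in p52/RelB KD. The log2 differences of effects were 0.579 for H3C3, 0.487 for H2AC12, 0.385 for H4C1, 0.355 for cluster 7905067, 0.295 for H2BC17, 0.285 for H3C10, 0.259 for H3C1, 0.247 for H2AC11, 0.21 for H3C7, 0.203 for H2BC13 and 0.181 for H2AC4, with adjusted p-values from 2.78e-05 to 0.0466. Of the 56 arms of 6 arrays examined (called members by size and class means), 1 had a lone array by Dixon's criterion, H4C2 at 10.9 in p50/RelA KD with sequence 1 in replicate 2; chance alone marks about 1 arm in 20.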

How the results depend on the processing

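The median difference of the members stayed above 0 under every alternative run, at 0.0449 to 0.0831 in p50/RelA KD and 0.102 to 0.175 in p52/RelB KD (main values 0.0587 and 0.124), each moving by less than the SD between the replicates (0.0262 and 0.0636). The counts of calls moved more. Without the replicate block, 0 members were called in p50/RelA KD, 12 in p52/RelB KD and 1 in the difference of effects. With the sequences averaged the counts in the KDs were 0 and 18, with sequence 1 alone 0 and 24, with sequence 2 alone 0 and 0, and with the methods' two-sample test on values as deposited 0 and 8. In p50/RelA KD 6 were called by that test on adjusted values, 1 with arrays centred on the median, and 0 without the low value filter or with all clusters tested. With 1 replicate or array left out, 0 to 4 members were called higher in p50/RelA KD, 13 to 41 in p52/RelB KD (15, 13 and 41 without replicate 1, 2 or 3), and 2 to 17 in the difference of effects (2 without replicate 3 of experiment 1, 17 without the array that stood apart). In p52/RelB KD 0 or 1 members were then called lower, H4C16 in each case. Counting identical clusters once, a setting added after seeing the data, left 29 calls in p52/RelB KD. H3C3, H2AC12, H2AC11 and H3C1 kept their calls under 28 of 29 alternatives and lost them with sequence 2 alone. No call changed direction.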
